A study of Homo sapiens with 27 samples.

Results

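The immediate early and AP-1 genes were followed in human U2OS osteosarcoma cells as the cultures grew from sparse to overcrowded, with and without knockdown of the protease MMP-2. The 10 genes were chosen by their symbols, with earlier results of these data known: FOS, FOSB, FOSL1, FOSL2, JUN, JUNB, JUND, ATF3, EGR1 and IER3. All 10 were found among the 55882 gene symbols of the count files, of which 14525 had no read in any library. U2OS is an established line derived from a human bone tumour. RNA came from 3 stable lines, each transduced with the pLKO.1 vector and selected with puromycin: a control line with the empty vector (WT in the labels), and lines MMP2sh1 (sh1, 23) and MMP2sh2 (sh2, 26), each with a different hairpin against MMP2. Each line was harvested subconfluent (Proliferating in the labels, plated at 30% confluence, day -2), confluent (day 0) and overconfluent (day +2), with 3 independent biological replicates per group and 27 libraries in all. By the study's text all lines carried the vector and its selection marker, although the labels call the control only WT and name no vector. Each knockdown line rested on 1 hairpin. The culture medium of the knockdown lines still held active MMP-2, as the study described. Density rose with days in culture, so changes with density and changes with time since plating cannot be told apart here.

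Immediate early genes are transcribed within minutes of a signal without new protein synthesis, and their mRNAs are short-lived. Growth factors and serum reach many of them through the kinases of the ERK pathway and the serum response factor SRF, which binds CArG boxes in their promoters. The FOS proteins (FOS, FOSB, FOSL1, FOSL2) pair with the JUN proteins (JUN, JUNB, JUND) to form AP-1, a dimeric transcription factor that binds TGA-centred sites in genes of proliferation, invasion and matrix turnover, matrix metalloproteinases among them. FOS family proteins do not form stable homodimers, so the makeup of AP-1 depends on which members are present, and high FOS in bone is known to drive osteosarcoma in mice. ATF3 is a stress-responsive relative that pairs with JUN proteins, EGR1 is a zinc finger factor and a classical ERK and SRF target, and IER3 is a short-lived protein of survival signalling.

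Read depth was high in every library, with 33580129 to 59374327 read pairs assigned to genes (median 40075178), and no library was left out. Each FOS, JUN, ATF3, EGR1 or IER3 value below rested on at least 183 reads in every library except for FOSB, which had 1 to 33 reads per library. The targeted gene, MMP2, was at 232 ± 14.2, 325 ± 6.93 and 489.7 ± 8.57 CPM (the read count scaled to library size with TMM factors, mean ± SD, n = 3) in the subconfluent, confluent and overconfluent control. It was at 40.1 ± 6.44, 59.1 ± 6.54 and 97.0 ± 3.12 CPM in MMP2sh1 and at 144 ± 10.3, 158 ± 3.28 and 279 ± 12.5 CPM in MMP2sh2, so MMP2sh2 kept more of it than MMP2sh1. Of 8 osteoblast and osteosarcoma markers, COL1A1 (at least 1005 CPM), SPARC and RUNX2 were present in every library, whereas COL1A2 and BGLAP stayed at or below 0.683 and 0.570 CPM. Of 8 measured markers of other cell types, CD3E and ALB stayed at or below 0.0242 and 0.102 CPM, whereas NEFL, a neurofilament gene, was between 19.9 and 98.6 CPM and EPCAM, an epithelial adhesion gene, between 3.12 and 6.73 CPM in every library.

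The starts of 8 of the 10 genes were matched to RefSeq promoters, and 5 are shown: those of EGR1, FOS and JUNB, which rose late in the expansion, and those of JUN and FOSL2, which fell through it. Each run is the 250 bases upstream of the RefSeq start on the strand of the gene (GRCh38.p14). Capitals mark the CArG box (CC, a run of 6 A or T, then GG), the EGR motif GCGNGGGCG, the CRE core TGACGT, the JUN-type motif TGACATCA and TATAAA, the last on the gene's own strand only and the others on both strands.
EGR1, chr5:138465229-138465478, plus strand: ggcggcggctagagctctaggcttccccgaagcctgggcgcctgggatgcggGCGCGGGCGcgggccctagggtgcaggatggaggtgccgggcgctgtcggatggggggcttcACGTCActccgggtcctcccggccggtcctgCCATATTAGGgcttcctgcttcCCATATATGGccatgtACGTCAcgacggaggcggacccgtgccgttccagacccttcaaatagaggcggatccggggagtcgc
FOS, chr14:75278578-75278827, plus strand: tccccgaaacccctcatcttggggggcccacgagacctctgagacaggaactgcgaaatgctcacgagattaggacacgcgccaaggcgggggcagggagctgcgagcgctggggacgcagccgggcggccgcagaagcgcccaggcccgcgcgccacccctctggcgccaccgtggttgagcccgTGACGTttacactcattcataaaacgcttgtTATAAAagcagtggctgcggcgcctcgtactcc
JUNB, chr19:12791236-12791485, plus strand: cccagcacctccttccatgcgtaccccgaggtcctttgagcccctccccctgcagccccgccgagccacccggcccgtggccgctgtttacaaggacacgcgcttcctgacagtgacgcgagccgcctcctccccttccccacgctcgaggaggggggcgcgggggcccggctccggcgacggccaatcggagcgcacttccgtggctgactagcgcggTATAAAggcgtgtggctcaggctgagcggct
JUN, chr1:58784048-58784297, minus strand: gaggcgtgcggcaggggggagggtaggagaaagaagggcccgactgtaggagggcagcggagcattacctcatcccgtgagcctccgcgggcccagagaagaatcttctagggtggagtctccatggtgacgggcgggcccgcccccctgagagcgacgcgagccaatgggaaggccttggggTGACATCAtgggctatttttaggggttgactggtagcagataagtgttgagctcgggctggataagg
FOSL2, chr2:28392608-28392857, plus strand: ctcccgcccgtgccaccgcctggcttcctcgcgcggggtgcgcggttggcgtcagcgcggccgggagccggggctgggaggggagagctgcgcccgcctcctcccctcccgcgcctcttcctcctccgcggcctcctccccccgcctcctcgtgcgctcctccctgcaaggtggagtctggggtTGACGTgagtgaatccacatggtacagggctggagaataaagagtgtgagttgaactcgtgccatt

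The EGR1 window held 2 CArG boxes, 105 to 96 and 83 to 74 bases upstream of the start, a motif found in 1.16% of the 35116 RefSeq promoters of the same length. It also held an EGR motif (8.42% of promoters) and 2 CRE cores on the opposite strand. A CRE core, found in 7.10% of promoters, lay 64 to 59 bases upstream in FOS, 60 to 55 in FOSB and 66 to 61 in FOSL2, and both FOS and FOSB had TATAAA, present in 6.80% of promoters, nearer the start. JUN had TGACATCA 67 to 60 bases upstream, and ATF3, whose window is not printed, had the same letters 123 to 116 bases upstream of its RefSeq start (2.38% of promoters). JUND held the full TGACGTCA 200 to 193 bases upstream, a motif of 1.65% of promoters that contains the core, and 1 further core. The consensus AP-1 letters TGANTCA, in 6.57% of promoters, were in none of the 8 windows. The core was added to the search after the sequences had been read. These matches are letters in a window and not mapped binding sites. No window other than that of EGR1, and so not that of FOS, held a CArG box. Sequence further upstream was not searched, so the windows cannot show that FOS or another gene lacks such a box.

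In GRCh37, the build of the count files, FOS lies at chr14:75745529-75748933 on the plus strand and EGR1 at chr5:137801168-137804992 on the plus strand. The canonical transcripts of JUN, JUNB and JUND each have 1 exon. All annotated exons of JUN joined to 3624 bases within chr1:59242517-59249720, so other transcripts of it have further exons. Reads were counted over exons without regard to strand. In the GENCODE annotation of GRCh37, 14.2% of the exon bases of JUNB are shared with HOOK2 on the other strand. For IER3 the share is 6.30%, with HCG20, also on the other strand. If the authors' annotation held the same overlaps, reads there were ambiguous between genes and left out of the counts. Levels per kilobase below used the full exon lengths, so those of JUNB and IER3 may be too low. The other 8 genes shared no exon base with another gene whose symbol was in the count files, and genes under other symbols were not searched.

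Compared per exon length, the JUN family was higher than the FOS family, and FOS itself was one of the lowest members. Exon length here joined all annotated exons of a gene, which can exceed the length of its main mRNA. That of IER3, 1350 bases, covered the whole gene, although its canonical transcript has 2 exons. The order of genes depends on these lengths, and other lengths were not tested. In the subconfluent control, JUND was at 85.6 ± 9.09 CPM per kilobase of exon (SD, n = 3), ahead of FOSL2 (73.5 ± 1.40), JUN (65.9 ± 3.14), IER3 (46.9 ± 2.80), FOSL1 (24.5 ± 0.784), EGR1 (14.9 ± 0.665), JUNB (12.4 ± 0.891), ATF3 (4.03 ± 0.405), FOS (1.93 ± 0.186) and FOSB (0.0644 ± 0.0297). No 2 neighbours in this order overlapped between libraries. By overconfluence the order in the control had become IER3, JUND, EGR1, JUN, JUNB, FOSL2, FOSL1, FOS, ATF3 and FOSB, and only JUNB (28.4 ± 2.92 CPM per kilobase) and FOSL2 (26.3 ± 2.08) overlapped. These are bulk libraries, in which fewer expressing cells and less RNA per cell cannot be told apart.

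**Figure D1:**
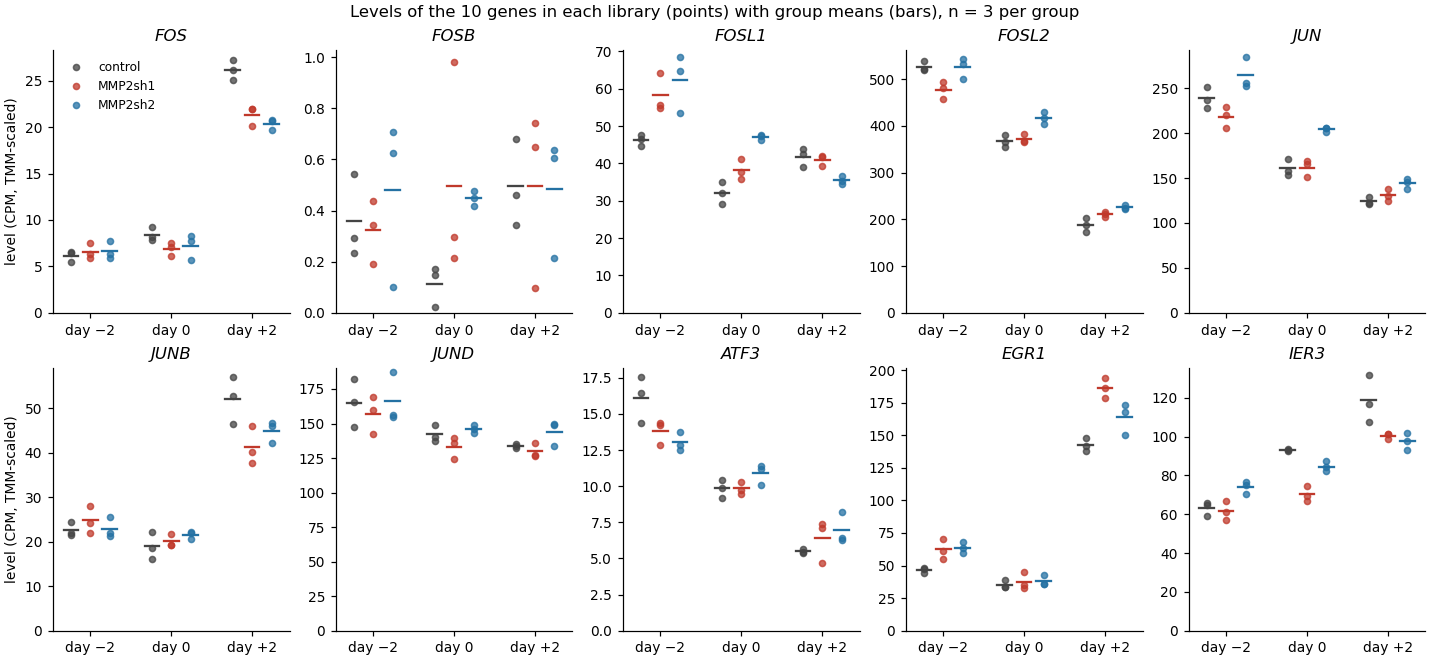
Level of each of the 10 genes in CPM (linear axis from 0) by day in the control, MMP2sh1 and MMP2sh2 lines, with points for libraries and bars for the means of 3. FOS, JUNB and EGR1 were highest on day +2 in every line, FOSL2, JUN and ATF3 had a lower mean at each step, and FOSB stayed below 1 CPM in every library.

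The first question was how these genes changed as control cells passed from sparse growth to confluence and then to overconfluence. Genes were called changed at an adjusted p under 0.05 in edgeR's quasi-likelihood test, adjusted over all genes tested. From subconfluent to confluent, 9 of the 10 genes were called, 2 higher and 7 lower, where 35.5% of all genes tested were called. From confluent to overconfluent 9 were called, 6 higher and 3 lower, against 41.4% of all genes. Over the whole expansion 8 were called, 4 higher and 4 lower, against 56.8%. With so many genes changing at each stage, the counts say less about these genes than their sizes, which over the whole expansion were above 0.58, the median absolute log2 change of all called genes, for each called gene except JUND.

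EGR1 had the largest rise from confluence to overconfluence after FOSB. Its level was 48.5, 47.6 and 44.5 CPM in the subconfluent control libraries, 33.4, 33.5 and 38.8 CPM at confluence and 148, 138 and 142 CPM at overconfluence. The confluent libraries were the lowest and the overconfluent ones the highest, with no overlap between stages. EGR1 first fell, with a log2 fold change of -0.41 (SE 0.07, adjusted p = 2.6e-05), and then rose 4.11-fold, with a log2 fold change of 2.04 (SE 0.06, adjusted p = 6.6e-22).

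FOS, the founding AP-1 partner of JUN, rose at both steps. Its control levels were 6.42, 6.56 and 5.47 CPM subconfluent, 9.25, 8.16 and 7.89 CPM confluent and 25.1, 27.2 and 26.1 CPM overconfluent, and the stages did not overlap. The log2 fold change was 0.46 (SE 0.13, adjusted p = 0.0085) at the first step and 1.65 (SE 0.10, adjusted p = 7.1e-15) at the second. The first of these calls was lost without confluent control replicate 1 (0.39, adjusted p = 0.057).

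JUNB, a JUN protein that activates many AP-1 sites more weakly than JUN, rose 2.79-fold late. It was at 22.0, 24.5 and 21.4 CPM in the subconfluent control, 18.7, 16.1 and 22.2 CPM at confluence and 46.4, 57.0 and 52.7 CPM at overconfluence. The first 2 stages overlapped, and all overconfluent libraries lay above both. The late log2 fold change was 1.48 (SE 0.09, adjusted p = 1.6e-14), whereas the early one, -0.25 (SE 0.10, adjusted p = 0.045), was lost in DESeq2 on the same libraries (-0.25, adjusted p = 0.077) and without any of 4 single libraries.

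IER3 rose at each step. The control libraries were at 64.9, 65.9 and 58.9 CPM, then 92.9, 93.4 and 92.7 CPM and then 108, 117 and 132 CPM, without overlap between stages. Its log2 fold changes were 0.56 (SE 0.05, adjusted p = 3.2e-09) and 0.37 (SE 0.06, adjusted p = 3.7e-06).

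FOSL2, the FOS family member with the highest level, fell throughout. It was at 522, 519.6 and 538 CPM in the subconfluent control, 355, 365 and 381 CPM at confluence and 203, 188 and 174 CPM at overconfluence. No library of one stage reached the level of another. The fall was 2.79-fold over the whole expansion, a log2 fold change of -1.48 (SE 0.05, adjusted p = 9e-19).

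JUN and ATF3 followed the same downward order of stages. JUN was at 229, 251 and 237 CPM, 157, 154 and 171 CPM and 121, 129 and 122 CPM in the 3 stages of the control. ATF3, the stress-responsive factor, was at 16.4, 17.5 and 14.4 CPM, 9.90, 9.22 and 10.4 CPM and 5.68, 5.45 and 5.40 CPM. For neither gene did any stage overlap another, and over the whole expansion JUN fell by 0.94 and ATF3 by 1.55 on the log2 scale (adjusted p = 5.5e-15 and 8.8e-12).

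JUND, the most steadily expressed JUN protein in most cells, moved little. The control libraries were at 147, 166 and 182 CPM subconfluent, 137, 140.5 and 149 CPM confluent and 133, 133 and 136 CPM overconfluent. The early change was -0.21 (SE 0.06, adjusted p = 0.0052) on the log2 scale, with overlapping libraries, and it was lost without subconfluent replicate 3 (-0.13, adjusted p = 0.058). The late change was -0.07 (SE 0.05, adjusted p = 0.29) and was not called.

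FOSL1, a FOS protein linked to invasion and mesenchymal states in many tumours, dipped at confluence in the control. It went from 44.7, 46.5 and 47.6 CPM to 35.1, 29.2 and 31.99 CPM and then to 39.0, 43.8 and 42.6 CPM. The confluent libraries lay below both other stages. Its log2 fold changes were -0.52 (SE 0.07, adjusted p = 9.6e-07) and 0.40 (SE 0.07, adjusted p = 4e-05), and the difference between overconfluent and subconfluent, -0.14 (SE 0.06, adjusted p = 0.068), was not called.

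FOSB was near the limit of detection. It had 17, 23 and 8 reads in the subconfluent control libraries, 8, 1 and 6 at confluence and 24, 14 and 19 at overconfluence. The rise from confluence to overconfluence was called, with a log2 fold change of 2.12 (SE 0.70, adjusted p = 0.016), but not without confluent replicate 2 (1.63, adjusted p = 0.10) or overconfluent replicate 1 (1.83, adjusted p = 0.11). No other comparison called FOSB.

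**Figure D2:**
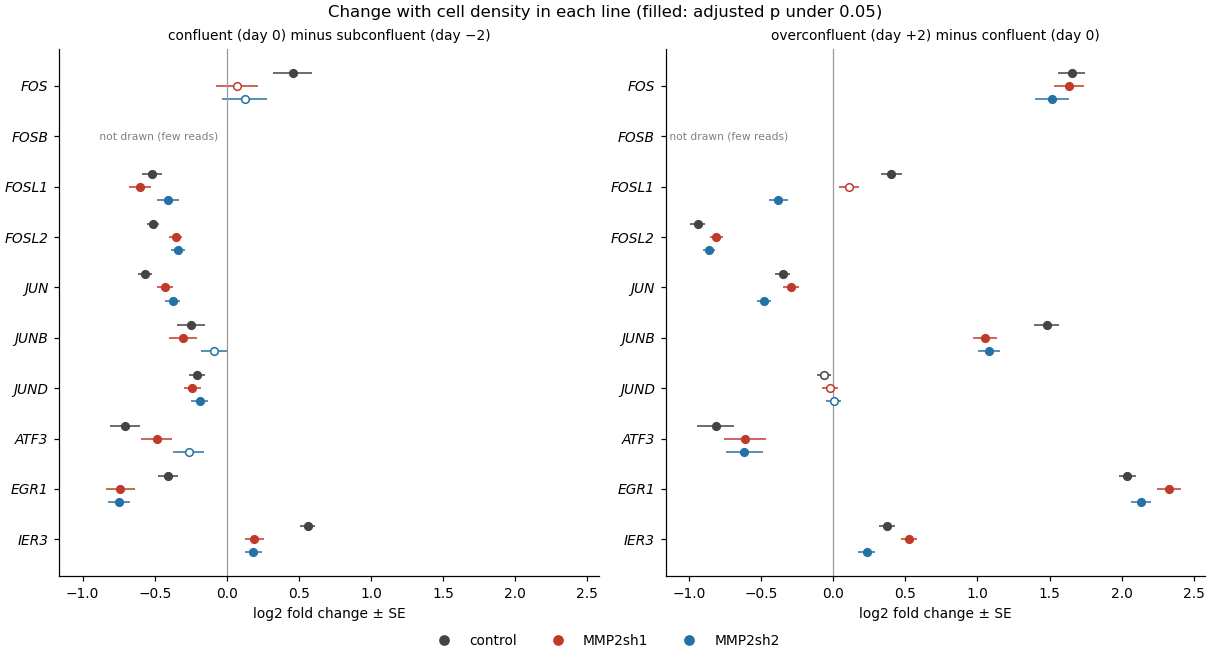
Log2 fold change with SE (edgeR) of each gene from subconfluent to confluent (left) and from confluent to overconfluent (right) in the 3 lines, filled where the adjusted p was under 0.05. EGR1, FOS and JUNB lay at 1.05 or above in every line at the second step, and FOSL1 was the one gene called in opposite directions, in the control (0.40) and in MMP2sh2 (-0.38).

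Both knockdown lines were taken through the same expansion, and EGR1, FOS and JUNB rose late in each. In MMP2sh1, 8 of the 10 genes were called from subconfluent to confluent (32.7% of all genes), 7 from confluent to overconfluent (46% of all genes) and 9 over the whole expansion (54.9% of all genes). In MMP2sh2 the counts were 6 (30.3% of all genes), 8 (45.5%) and 9 (54.7%). EGR1 went from 34.8, 32.5 and 45.2 CPM to 178, 186 and 194 CPM in MMP2sh1 and from 35.8, 35.6 and 42.4 CPM to 173, 168 and 150.4 CPM in MMP2sh2 between confluence and overconfluence. The overconfluent libraries lay above all confluent ones in each line, with log2 fold changes of 2.33 (SE 0.08, adjusted p = 1.1e-16) and 2.13 (SE 0.07, adjusted p = 2.8e-20).

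FOS rose late by 1.63 and 1.52 on the log2 scale in MMP2sh1 and MMP2sh2 (adjusted p = 7.5e-12 and 1.1e-11), but its early changes, 0.07 and 0.12, were not called (adjusted p = 0.75 and 0.6). JUNB rose late by 1.05 and 1.08 (adjusted p = 2.3e-10 and 8.5e-13). FOSL2 and JUN fell at both steps in both lines, FOSL2 by 1.18 and 1.21 and JUN by 0.74 and 0.87 on the log2 scale over the whole expansion. ATF3 fell over the whole expansion by 1.12 in MMP2sh1 and by 0.89 in MMP2sh2 (adjusted p = 8.2e-07 and 6.2e-07).

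FOSL1 differed in course between the lines. In MMP2sh1 it went from 55.8, 54.7 and 64.2 CPM to 37.7, 41.2 and 35.9 CPM and stayed at 41.7, 42.1 and 39.2 CPM, the last step being 0.11 (SE 0.07, adjusted p = 0.21) on the log2 scale and not called. In MMP2sh2 it went from 53.5, 64.7 and 68.4 CPM to 47.5, 47.3 and 46.2 CPM and then to 36.7, 34.6 and 35.2 CPM, falling at both steps without overlap. The late change in MMP2sh2 was -0.38 (SE 0.07, adjusted p = 2.5e-05).

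IER3 rose at both steps in both lines, but its early rise was small. It was at 57.0, 61.3 and 66.8 CPM, 69.4, 67.1 and 74.8 CPM and 98.6, 102 and 101 CPM in the 3 stages of MMP2sh1, and at 70.6, 75.3 and 76.9 CPM, 82.2, 87.2 and 84.1 CPM and 93.1, 97.9 and 102 CPM in those of MMP2sh2. The early log2 fold changes, 0.19 (SE 0.07, adjusted p = 0.031) and 0.18 (SE 0.06, adjusted p = 0.02), were lost without any of 4 and any of 3 single libraries respectively.

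The changes altered the makeup of the FOS and JUN families, expressed as each member's share of the family's summed level per kilobase of exon. In the control, FOSL2 held 73.5% ± 0.438 of the FOS family in subconfluent cells and 46.3% ± 3.04 in overconfluent cells (SD, n = 3). FOSL1 went from 24.5% ± 0.434 to 39.1% ± 2.49, and FOS from 1.93% ± 0.218 to 14.5% ± 0.594, while the family's sum went from 100.05 ± 1.84 to 56.8 ± 1.54 CPM per kilobase. In the JUN family, JUNB went from 7.57% ± 0.646 to 21.5% ± 1.60 and JUN from 40.3% ± 1.92 to 25.9% ± 0.488, while JUND was at 52.2% ± 2.56 and 52.6% ± 1.68. The overconfluent share of FOS was lower in the knockdown lines, between 10.7% and 12.2% in MMP2sh1 and between 10.9% and 11.6% in MMP2sh2 against 13.8% to 14.9% in the control, and that of FOSL2 was higher, between 50.3% and 56.1% against at most 49.8%. These shares are descriptions and were not tested, since they restate the changes of single genes, and their sizes depend on the exon lengths used.

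**Figure D3:**
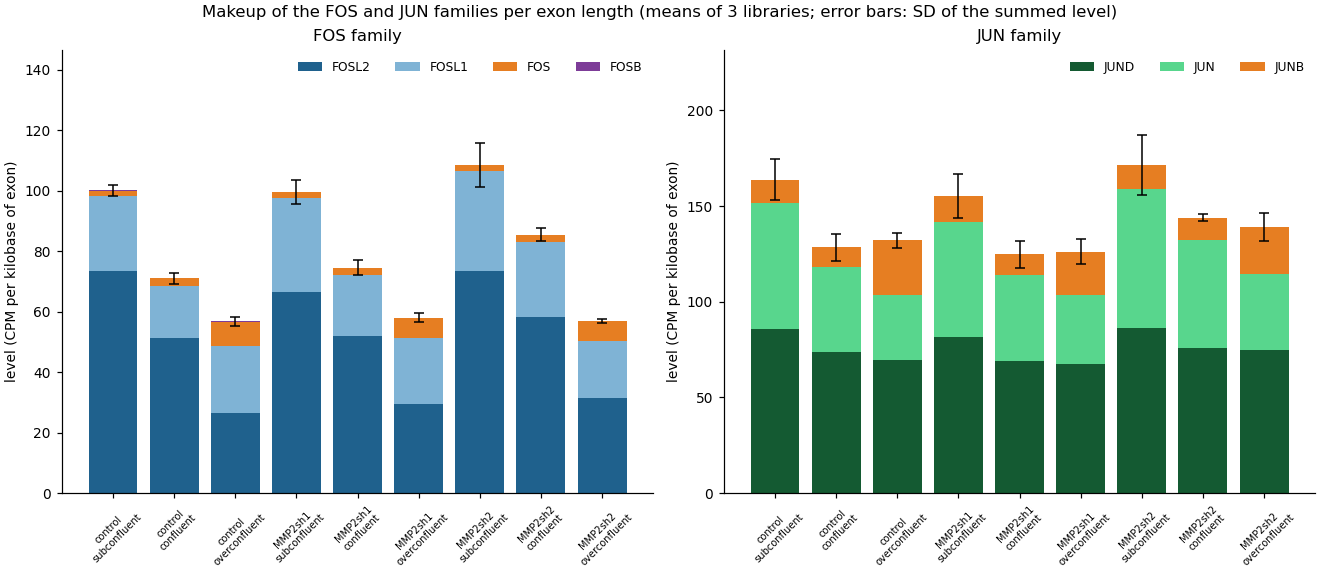
Stacked mean levels of FOS family (left) and JUN family (right) members in CPM per kilobase of exon in the 9 groups, with error bars for the SD of the sum over 3 libraries. The FOS family sum falls with each stage in every line, and the FOS and JUNB layers (orange) are widest on day +2.

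The second question was whether the knockdown lines differed from the control at each stage. In MMP2sh1, 2 of 10 genes were called in subconfluent cells (11.6% of all genes), 2 of 9 in confluent cells (16.8%) and 4 of 10 in overconfluent cells (14.8%). In MMP2sh2 the counts were 3 of 10 (11% of all genes), 4 of 10 (12.9%) and 6 of 10 (6.32%). The overconfluent count in MMP2sh2 ranged from 1 to 7 when single libraries were left out and was 3 in edgeR on all 27 libraries. Differences were small beside those with density, the largest called one being 0.53 on the log2 scale, for FOSL1 in confluent MMP2sh2. The control libraries served both lines, so the differences of MMP2sh1 and MMP2sh2 from them are not independent.

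EGR1 was higher in both knockdown lines in subconfluent cells. It was at 55.1, 61.3 and 70.6 CPM in MMP2sh1 and 59.6, 63.5 and 67.9 CPM in MMP2sh2, where the control libraries lay between 44.5 and 48.5 CPM, without overlap. The log2 differences were 0.41 (SE 0.08, adjusted p = 0.00065) and 0.44 (SE 0.07, adjusted p = 0.00015), and each kept its call in every alternative and with every single library left out. At confluence the values overlapped, with differences of 0.08 and 0.09 that were not called (adjusted p = 0.6 and 0.49). In overconfluent cells EGR1 was again higher, 0.38 (SE 0.06, adjusted p = 8.2e-06) in MMP2sh1 and 0.20 (SE 0.06, adjusted p = 0.027) in MMP2sh2, and the second call was lost in both fits on all 27 libraries (adjusted p = 0.18 in edgeR and 0.21 in DESeq2) and without control replicate 2 or 3 or MMP2sh2 replicate 1 or 2 (adjusted p from 0.12 to 0.26).

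FOSL1 was higher in both knockdown lines before overconfluence. In subconfluent cells the log2 differences were 0.33 (SE 0.07, adjusted p = 0.0023) in MMP2sh1 and 0.42 (SE 0.08, adjusted p = 0.00073) in MMP2sh2. At confluence they were 0.25 (SE 0.07, adjusted p = 0.015) and 0.53 (SE 0.07, adjusted p = 7.6e-07), the first of which was lost without confluent control replicate 2 (0.19, adjusted p = 0.11) or MMP2sh1 replicate 2 (0.20, adjusted p = 0.13). In overconfluent cells FOSL1 was not called in MMP2sh1 (-0.03, adjusted p = 0.83) and was lower in MMP2sh2, -0.24 (SE 0.07, adjusted p = 0.035), a call lost in both fits on all 27 libraries, with the replicate block (adjusted p = 0.059) and without any of 5 single libraries (adjusted p from 0.059 to 0.23).

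IER3 was lower in both knockdown lines at confluence and overconfluence, though the confluent call in MMP2sh2 did not hold in most settings. The clearest case was confluent MMP2sh1, at 69.4, 67.1 and 74.8 CPM against 92.9, 93.4 and 92.7 CPM in the control, with a log2 difference of -0.41 (SE 0.05, adjusted p = 3.8e-07). In confluent MMP2sh2 the difference was -0.15 (SE 0.05, adjusted p = 0.039), and it was lost in 4 of 7 alternatives, among them edgeR on all 27 libraries (adjusted p = 0.19), and without any of 5 of the 6 libraries (adjusted p from 0.072 to 0.18). In overconfluent cells the differences were -0.24 (SE 0.06, adjusted p = 0.008) and -0.28 (SE 0.06, adjusted p = 0.0021), and neither was called without overconfluent control replicate 3, the highest control library (-0.16, adjusted p = 0.14, and -0.20, adjusted p = 0.099). Subconfluent MMP2sh2 was instead higher, 0.23 (SE 0.06, adjusted p = 0.021), a call lost without any of 3 single libraries.

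In overconfluent cells FOS was lower in both knockdown lines and JUNB in MMP2sh1. Overconfluent FOS was at 22.0, 20.1 and 21.9 CPM in MMP2sh1 and 19.7, 20.6 and 20.7 CPM in MMP2sh2, all below the lowest control library at 25.1 CPM. Its log2 differences were -0.30 (SE 0.08, adjusted p = 0.014) and -0.36 (SE 0.08, adjusted p = 0.0038), with adjusted p = 0.08 and 0.051 in edgeR on all 27 libraries. The FOS call in MMP2sh1 was also lost in DESeq2 on all 27 libraries (adjusted p = 0.08), without control replicate 2 (-0.27, adjusted p = 0.083) and without MMP2sh1 replicate 2 (-0.26, adjusted p = 0.091). Overconfluent JUNB was at 45.9, 37.8 and 40.2 CPM in MMP2sh1 and 46.6, 45.9 and 42.3 CPM in MMP2sh2 against 46.4, 57.0 and 52.7 CPM in the control. It was lower in MMP2sh1, -0.34 (SE 0.08, adjusted p = 0.0028), except without overconfluent control replicate 2 (-0.27, adjusted p = 0.05), and the difference of -0.21 (SE 0.07, adjusted p = 0.068) in MMP2sh2 was called only without overconfluent control replicate 1 (-0.29, adjusted p = 0.017). At earlier stages neither gene was called in either line, except JUNB as higher in confluent MMP2sh2 without control replicate 3 (0.30, adjusted p = 0.047).

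FOSL2 and JUN, whose levels were highest in sparse cells, were higher in MMP2sh2 at confluence and overconfluence. JUN was at 201, 206 and 206 CPM in confluent MMP2sh2 against 157, 154 and 171 CPM in the control, and its log2 differences were 0.33 (SE 0.05, adjusted p = 1.9e-06) and 0.22 (SE 0.06, adjusted p = 0.011) at the 2 stages. FOSL2 was at 405, 429 and 417 CPM against 355, 365 and 381 CPM, with differences of 0.17 (SE 0.04, adjusted p = 0.0035) and 0.26 (SE 0.06, adjusted p = 0.0014). The overconfluent calls were lost without overconfluent control replicate 3, JUN at 0.20 (adjusted p = 0.083) and FOSL2 at 0.20 (adjusted p = 0.058), and that of JUN also without either of 2 MMP2sh2 libraries. In MMP2sh1 neither gene was called at any stage, with differences from -0.14 to 0.16 for FOSL2 and from -0.13 to 0.07 for JUN. Subconfluent FOSL2 was lower in MMP2sh1 in 3 of the alternatives, with -0.14 in DESeq2 on the same libraries (adjusted p = 0.014). Overconfluent FOSL2 was higher in MMP2sh1 in both fits on all 27 libraries (0.16, adjusted p = 0.018 in edgeR and 0.0055 in DESeq2), under the stricter filter on low counts (0.16, adjusted p = 0.047) and without control replicate 1 (0.22, adjusted p = 0.011). Subconfluent JUN was higher in MMP2sh2 in DESeq2 on the same libraries (0.15, adjusted p = 0.045) and on all 27 (0.17, adjusted p = 0.021).

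ATF3, JUND and FOSB were called in no comparison of a knockdown line with the control in the edgeR fits on their own libraries. ATF3 was at 12.9, 14.2 and 14.4 CPM in subconfluent MMP2sh1 and 13.8, 12.5 and 12.8 CPM in subconfluent MMP2sh2 against 16.4, 17.5 and 14.4 CPM in the control. All of the MMP2sh2 libraries lay below all control libraries, with a log2 difference of -0.31 (SE 0.10, adjusted p = 0.051), which was called under the stricter filter on low counts (-0.31, adjusted p = 0.046) and without control replicate 3 (-0.38, adjusted p = 0.036). For JUND the differences ran from -0.10 to 0.11 over the 6 comparisons, with SEs of 0.05 to 0.07. FOSB was not tested in confluent MMP2sh1, where it did not pass the filter on low counts.

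**Figure D4:**
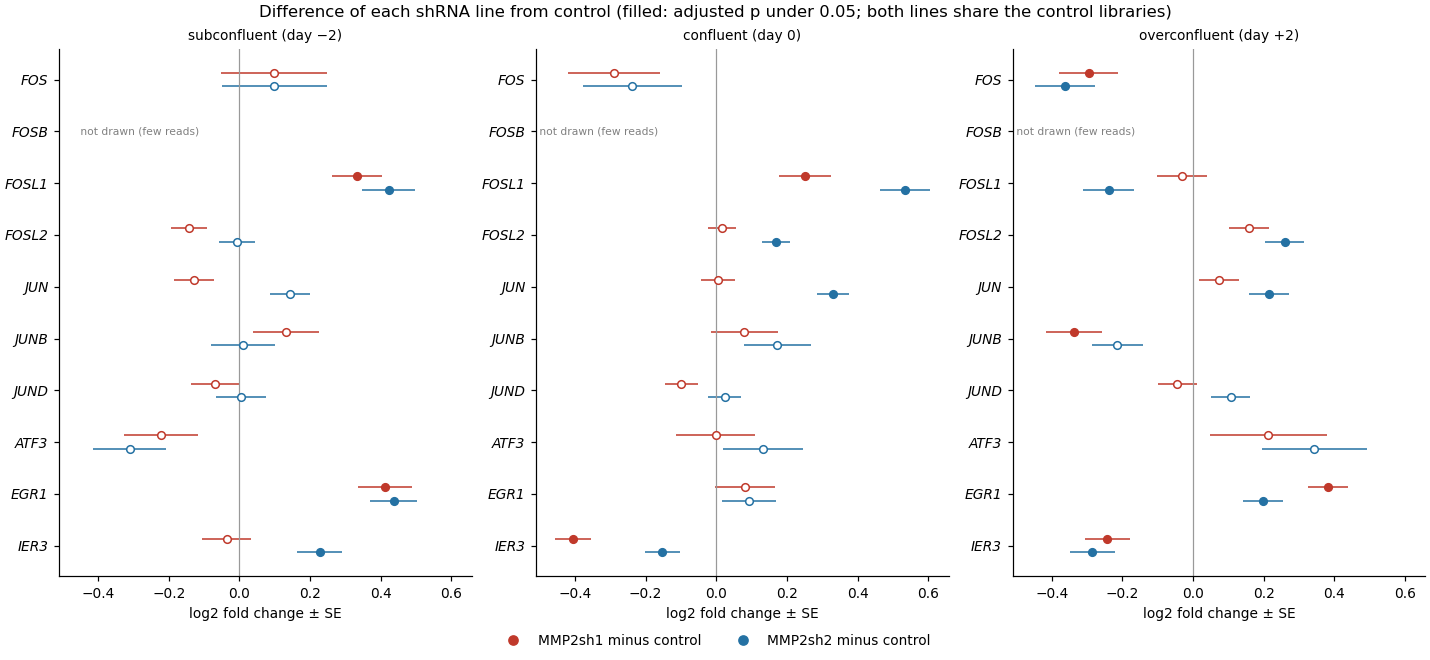
Log2 difference with SE (edgeR) of MMP2sh1 and MMP2sh2 from the control at each stage, filled where the adjusted p was under 0.05. EGR1 and FOSL1 lay at 0.33 or above in both lines on day -2, and FOS, JUNB and IER3 lay below 0 in both lines on day +2.

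The 2 knockdown lines, which carry different amounts of residual MMP2 mRNA, were also compared with each other. Of the 10 genes, 2 were lower in MMP2sh1 than in MMP2sh2 in subconfluent cells (10.7% of all genes were called) and 4 at confluence (18.5%), and none was higher. JUN differed by -0.28 (SE 0.06, adjusted p = 0.0044) and -0.32 (SE 0.04, adjusted p = 5.7e-07) on the log2 scale at these stages, and IER3 by -0.27 (SE 0.07, adjusted p = 0.015) and -0.25 (SE 0.05, adjusted p = 0.00058). FOSL1 and FOSL2 were lower in MMP2sh1 at confluence, -0.28 (SE 0.06, adjusted p = 0.0017) and -0.15 (SE 0.04, adjusted p = 0.0021). In overconfluent cells edgeR called none (7.86% of all genes), with 4 at an unadjusted p under 0.05, and DESeq2 called 1, EGR1, higher in MMP2sh1 (0.18, adjusted p = 0.033).

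The third question was whether the change with density itself differed between a knockdown line and the control, tested as an interaction. For the change from subconfluent to overconfluent, 3 genes were called in MMP2sh1 (7.4% of all genes) and 4 in MMP2sh2 (4.98%). The log2 change of FOSL1 was lower than in the control in both lines, -0.36 (SE 0.10, adjusted p = 0.024) in MMP2sh1 and -0.67 (SE 0.11, adjusted p = 8.8e-05) in MMP2sh2. FOSL2 fell less in both, 0.30 (SE 0.08, adjusted p = 0.012) and 0.26 (SE 0.07, adjusted p = 0.032). JUNB rose less in MMP2sh1, -0.47 (SE 0.13, adjusted p = 0.023), IER3 rose less in MMP2sh2, -0.52 (SE 0.09, adjusted p = 0.00044), and ATF3 fell less in MMP2sh2, 0.65 (SE 0.17, adjusted p = 0.021). EGR1 was not called, with -0.03 and -0.24 (adjusted p = 0.92 and 0.11). At both ends of the expansion it had been called higher in both lines, though the overconfluent call in MMP2sh2 was lost in several settings.

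After the course of FOSL1 had been seen, the same interaction was fitted for the step from confluent to overconfluent. It called none of the 10 genes in MMP2sh1 (4.66% of all genes), with 4 at an unadjusted p under 0.05 and 1 in DESeq2, and it called FOSL1 in MMP2sh2 (4.76%), -0.78 (SE 0.10, adjusted p = 8.6e-07). JUNB was at -0.42 (SE 0.13, adjusted p = 0.065) in MMP2sh1 and -0.39 (SE 0.12, adjusted p = 0.051) in MMP2sh2 for this step. In both lines JUNB was called without a filter on low counts (-0.42, adjusted p = 0.0076, and -0.39, adjusted p = 0.017). It was also called under the stricter filter (adjusted p = 0.047 and 0.033) and in DESeq2 on the same libraries (adjusted p = 0.05 after rounding and 0.048). RLE scaling called it in MMP2sh2 (adjusted p = 0.045).

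The upstream and downstream genes of the same pathway were read from fixed lists, which were drawn up with earlier results of these data known. Of 11 ERK feedback genes tested, 9 rose and 1 fell from subconfluent to overconfluent control cells, with a median log2 change of 1.65 where the median of all genes was 0.03. In this comparison 56.8% of all genes tested were called, 5373 higher and 5466 lower. PHLDA1, a gene induced by ERK that is on 2 of the lists, rose by 3.997, and SPRY4, an inhibitor of receptor signalling, by 2.93. DUSP6, a phosphatase of ERK, rose by 2.35 on few reads, 6 to 19 per subconfluent and 47 to 66 per overconfluent control library. Of 35 other immediate early genes tested, 21 rose and 9 fell (median 0.39), among them the nuclear receptor gene NR4A2 (3.17) and the ERK phosphatase gene DUSP5 (1.76), which rose. Of 21 genes of ERK and SRF input, 2 rose and 11 fell (median -0.20), a share called near that of all genes. They included HRAS (-0.78), the SRF cofactor gene MKL1 (-0.69), the kinase gene MAP2K2 (-0.60) and SRF itself (-0.32).

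Known AP-1 target genes did not move one way. Of 18 tested, 4 rose and 9 fell over the expansion of the control (median -0.26), where 56.8% of all genes were called. MMP3, encoding stromelysin, went from 823 to 1708 reads per library in subconfluent cells to 4 to 9 reads in overconfluent cells, a log2 fold change of -7.34 (SE 0.19, adjusted p = 3.9e-21), and MMP13, encoding a collagenase, rose by 3.24 (adjusted p = 1.4e-11). AREG, the gene of an EGF receptor ligand, fell by 1.61 on 11 to 87 reads per control library. Of 10 other AP-1 and MAF partner genes tested, 4 rose and 5 fell (median 0.02), with MAFK at -1.13 and JDP2 at -1.08.

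**Figure D5:**
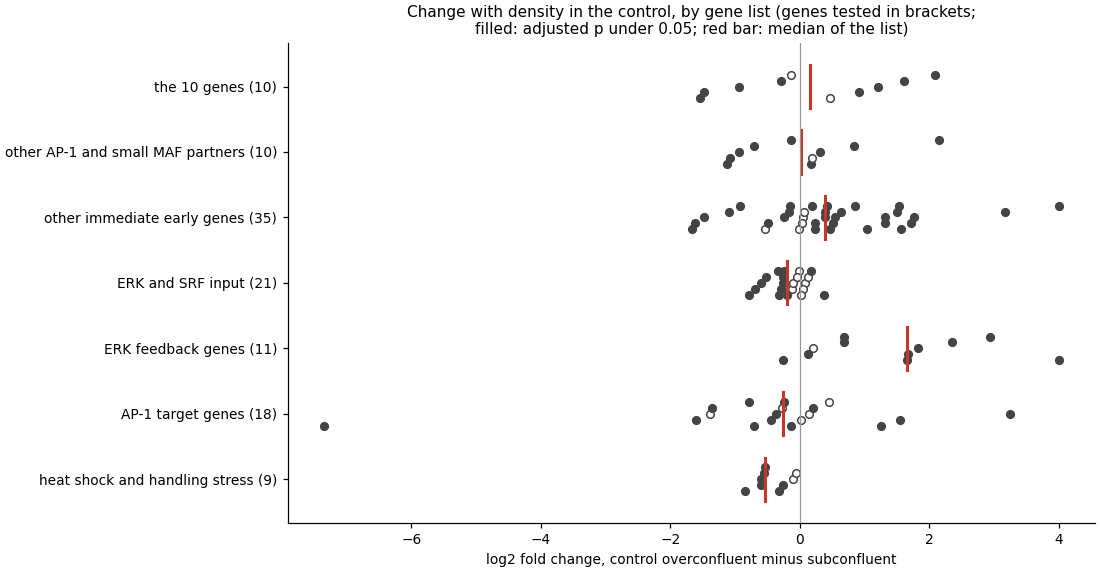
Log2 fold change from subconfluent to overconfluent in the control for each tested gene of the 10 and of 6 related lists, filled where the adjusted p was under 0.05, with red bars for list medians. The ERK feedback genes have a median of 1.65 and the heat shock genes one of -0.54, and the point at -7.34 is MMP3.

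In the knockdown lines genes of these lists moved in both directions. Of the other immediate early genes of MMP2sh1, 6 were higher and 7 lower of 35 tested in subconfluent cells (11.6% of all genes were called), 5 and 8 of 34 at confluence (16.8%) and 8 and 10 of 35 at overconfluence (14.8%), with medians between -0.06 and -0.03. In MMP2sh2 the counts of 35 tested were 6 and 2 in subconfluent cells (11% of all genes were called), 9 and 4 at confluence (12.9%) and 6 and 6 at overconfluence (6.32%), with medians between 0.0008 and 0.15. The share called was above that of all genes at each stage in both lines. PHLDA1 was lower in all 6 comparisons, most at confluence (-1.07 (SE 0.07, adjusted p = 4.9e-14) in MMP2sh1 and -0.93 (SE 0.07, adjusted p = 3e-12) in MMP2sh2). SGK1, a kinase gene induced by serum, was lower in both lines at confluence (-1.25 and -0.82) and overconfluence (-1.39 and -0.88), and it was higher in subconfluent MMP2sh2 (0.33). SRF was lower in MMP2sh1 in subconfluent and confluent cells (-0.32 and -0.26) and higher in confluent MMP2sh2 (0.22). Of the ERK feedback genes, EPHA4, a receptor of ephrins, was lower in both lines at confluence (-0.70 and -0.79) and higher at overconfluence (1.33 and 0.92).

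Of the AP-1 targets in MMP2sh1, 4 were higher and 3 lower of 18 tested in subconfluent cells, 6 and 2 of 17 at confluence and 8 and 2 of 16 at overconfluence, where 11.6%, 16.8% and 14.8% of all genes were called. In MMP2sh2 1 was higher and 1 lower of 18, 4 and 2 of 17, and 5 and 3 of 16 at the same stages, where 11%, 12.9% and 6.32% of all genes were called. MMP9, encoding a gelatinase, was higher in MMP2sh1 at each stage, 1.30 (SE 0.10, adjusted p = 8e-10), 0.54 (SE 0.15, adjusted p = 0.0084) and 1.75 (SE 0.07, adjusted p = 1.3e-16), and in MMP2sh2 at overconfluence, 0.44 (SE 0.10, adjusted p = 0.0048). MMP3 was higher in both lines in subconfluent (0.57 and 0.93) and confluent cells (1.04 and 1.87). AREG was higher in subconfluent MMP2sh1 (1.24) on 19 to 147 reads per library of either line. Among the partner genes, MAFK was higher in both lines at confluence (0.52 and 0.70) and overconfluence (0.35 and 0.36), JDP2 at overconfluence (0.35 and 0.26), and ATF7 was lower in confluent and overconfluent MMP2sh1 (-0.49 and -0.35).

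Stress genes and the sum of the markers of other cell types, mostly NEFL, moved with density too. Of 9 heat shock genes, which share handling and stress as triggers with immediate early genes, 7 fell and none rose over the expansion of the control (median -0.54). In that comparison 56.8% of all genes were called. HSPD1 was at -0.84, HSPB1 at -0.60 and HSPA8 at -0.60. Their summed level was 5694 to 5825 CPM in subconfluent control libraries and 3878 to 4100 CPM in overconfluent ones. The near-identical genes HSPA1A and HSPA1B were lower in MMP2sh1 at each stage, with log2 differences from -0.41 to -0.26. Reads that map equally well to both may have been removed by the authors' filter on mapping quality. The markers of other cell types summed to 95.2 to 105.8 CPM in subconfluent and 31.4 to 32.9 CPM in overconfluent control libraries, and the osteoblast and osteosarcoma markers to 2435 to 2655 and 2670 to 2840 CPM. NEFL, with a median of 62.8 CPM over all libraries, made up most of the sum of other cell types, and EPCAM was next at 4.97 CPM. The part of these lists in the changes of the 10 genes was not tested.

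The pattern of 3 genes over the 9 group means was set beside that of the other 10187 genes with at least 10 CPM on average, for the members whose group means varied most. Over the 9 group means of log2 CPM, which share their libraries, EGR1 was most like PDLIM4 (Pearson r = 0.993), MYADM (0.990) and SH3PXD2B (0.989). FOS was most like YPEL5 (0.995), ARHGEF3 (0.993) and RHBDD2 (0.993), and ARHGEF3 was at 13.4, 24.5 and 95.5 CPM in the 3 control stages. FOSL2 was most like LSS (0.995), KIAA1244 (0.995) and AP1M2 (0.994), and AP1M2 was at 89.5, 49.3 and 18.3 CPM in the same groups. These likenesses are descriptions over few points in which all groups of one stage move together.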

How the data were processed

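Poly(A) RNA of 27 libraries (9 groups of 3) was sequenced as paired reads by the authors. The raw counts per gene were made by the authors before they deposited them: reads were trimmed with Trim Galore 0.6.0, aligned to hg19 with STAR 2.7.3a, filtered with Samtools and counted over exons with HTSeq 2.0.0 in union mode without strand. The version of their gene annotation is not given in the sources used here. The 5 summary lines of HTSeq (16.8% to 19.1% of the read pairs per library, including 6.95% to 7.83% that were ambiguous between genes) were left out of library sizes and tests.

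The counts were analysed with R 4.3.3 and edgeR 4.0.16. Each comparison was fitted across all genes on its own libraries by the quasi-likelihood test with TMM factors and filterByExpr (minimum count 10, minimum total 15), and p-values were adjusted by Benjamini-Hochberg over all genes tested, with calls at 0.05. SEs were taken from the fold change and its F statistic. Interactions were fitted on the 4 groups concerned, and those from confluent to overconfluent were added after the data were seen. Levels are CPM with TMM factors over the 27 libraries, and levels between genes are per kilobase of GENCODE exons on GRCh37. The fits were tested on simulated data. Alternatives were DESeq2 1.42.0, fits on all 27 libraries, RLE scaling, other count filters, the replicate number as a block and leaving out single libraries. The 10 genes and all gene lists were chosen with earlier results of these data known.

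Of each other list, the text names the 3 genes with the largest called change over the expansion of the control and the 2 called with the largest summed difference in MMP2sh1. MMP2, and for the 3 most variable members (mean of at least 1 CPM) the 3 most alike genes (mean of at least 10 CPM), completed that rule, and some genes it names are not reported here. Promoters were read from a RefSeq table on GRCh38.p14, which held 8 of the 10 genes. No authors' fold changes were used.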

Additional observations from a re-analysis of the deposited data

Results flagged for a closer look

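Among the 10 genes, 8 interactions passed the threshold of edgeR's quasi-likelihood test, meaning that the log2 change with density in a knockdown line minus that in the control had an adjusted p under 0.05. From subconfluent to overconfluent, FOSL1 was at -0.36 in MMP2sh1 (SE 0.10, adjusted p = 0.024) and at -0.67 in MMP2sh2 (SE 0.11, adjusted p = 8.8e-05). FOSL2 was at 0.30 in MMP2sh1 (SE 0.08, adjusted p = 0.012) and at 0.26 in MMP2sh2 (SE 0.07, adjusted p = 0.032). JUNB was at -0.47 in MMP2sh1 (SE 0.13, adjusted p = 0.023). In MMP2sh2, ATF3 was at 0.65 (SE 0.17, adjusted p = 0.021) and IER3 at -0.52 (SE 0.09, adjusted p = 0.00044). From confluent to overconfluent, FOSL1 was at -0.78 in MMP2sh2 (SE 0.10, adjusted p = 8.6e-07), a comparison added after the data were seen.

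The calls of FOSL1 (over both intervals) and IER3 in MMP2sh2 were kept in each of the 7 alternatives and with each of 12 libraries left out in turn. JUNB in MMP2sh1 was lost without any of 6 libraries, FOSL1 in MMP2sh1 without any of 5, ATF3 in MMP2sh2 without any of 3 and FOSL2 in MMP2sh1 without overconfluent control replicate 3 (0.25, adjusted p = 0.063). FOSL2 in MMP2sh2 was lost under RLE scaling (0.25, adjusted p = 0.053), with the replicate block (0.26, adjusted p = 0.051) and without any of 5 libraries. The control libraries were shared by both lines.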

How the results depend on the processing

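Of 219 fold changes of the 10 genes, 108 were called, and of their 3044 values under alternatives 2911 kept direction and side of the threshold, 91 lost a call, 42 gained one and 0 reversed. The smallest library held 33580129 counts on genes, so depth limited mainly FOSB among the 10 genes, and replicates of 1 line share that line's transduction.

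Counts of called genes in the comparisons that moved by over 1.5 times were as follows. In overconfluent MMP2sh2 against control 6 were called, 3 in edgeR on all 27 libraries and 1 to 7 with single libraries left out, the lowest without overconfluent control replicate 3 and 3 without MMP2sh2 replicate 1 or 2. In confluent MMP2sh1 against control 2 were called, with 1 to 2 on leaving out libraries (1 without replicate 2 of either line), and in overconfluent MMP2sh1 4, with 2 to 5 (2 without control replicate 2). Between MMP2sh1 and MMP2sh2 the subconfluent count of 2 became 1 to 2 (1 without MMP2sh1 replicate 1 or 2 or MMP2sh2 replicate 2), and the overconfluent count of 0 became 1 in DESeq2, 1 without a filter on low counts and 0 to 1 on leaving out libraries (1 without MMP2sh1 replicate 1 or MMP2sh2 replicate 3). The interaction over the whole expansion gave 0 to 3 calls in MMP2sh1 (3 in the main analysis, 0 without overconfluent control replicate 3, 1 without overconfluent control replicate 2 or MMP2sh1 replicate 3) and 2 to 5 in MMP2sh2 (4, 2 without replicate 3 of either overconfluent group). The interaction added for the late step gave 0 calls in MMP2sh1, 1 in DESeq2, 2 without a filter, 1 where each library had to hold 10 reads of a gene and 0 to 1 on leaving out libraries (1 without replicate 3 of confluent control or MMP2sh1 or replicate 1 of overconfluent control or MMP2sh1). In MMP2sh2 it gave 1 call, 2 in DESeq2, 2 under RLE scaling, 2 without a filter, 2 where each library had to hold 10 reads of a gene and 1 to 2 on leaving out libraries (2 without confluent control replicate 3 or overconfluent control replicate 1). The cause was not tested.

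Replicate numbers did not pair the libraries: deviations of same-numbered libraries from their group means correlated between -0.0485 and 0.0752, and 9 of 27 libraries correlated best with a library of their own number. With the replicate block, overconfluent MMP2sh1 against MMP2sh2 gave 2 calls in place of 0, overconfluent MMP2sh2 against control gave 5 in place of 6, and in no other comparison did the count change by over 1.5 times.

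Levels moved by over 1 SD in 16 of 180 cases under 2 other scalings, by at most 1.27% with RLE factors and 5.64% on plain library totals.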

Other observations

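The related lists were also followed through the expansion of the knockdown lines, where each stage is compared within 1 line. Of all genes tested from subconfluent to overconfluent, 54.9% were called in MMP2sh1 and 54.7% in MMP2sh2. Of 11 ERK feedback genes tested, 10 rose and 0 fell in MMP2sh1 from subconfluent to overconfluent (median log2 change 1.86), and 10 rose and 1 fell in MMP2sh2 (median 1.60). Of 35 other immediate early genes, 18 rose and 8 fell in MMP2sh1 (median 0.29) and 18 rose and 10 fell in MMP2sh2 (median 0.18), where the medians of all genes were 0.04 and 0.05. Of 17 AP-1 target genes, 8 rose and 6 fell in MMP2sh1 (median 0.22) and 4 rose and 8 fell in MMP2sh2 (median -0.06). MMP13, which rose over the expansion of the control, was lower than the control in overconfluent MMP2sh1 (-0.66, SE 0.18, adjusted p = 0.011) and in confluent and overconfluent MMP2sh2 (-0.98, SE 0.24, adjusted p = 0.004, and -1.27, SE 0.18, adjusted p = 3.3e-06). NR4A2 was lower in overconfluent MMP2sh1 (-0.45, SE 0.14, adjusted p = 0.021), and DUSP5 was higher there (0.20, SE 0.07, adjusted p = 0.044).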
